A study of Mus musculus with 34 samples.

Results

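The change from the late 2-cell stage to the blastocyst was measured in mouse embryos that had received wild-type (WT) CHK1 mRNA by injection at the zygote stage. Members were chosen by their labels: 4 WT late 2-cell embryos, listed as untreated, and 7 WT blastocysts, grown in KSOM medium with a CHK1 inhibitor at 30 nM, together 11 of the 34 embryos of the series. Each library came from 1 embryo freed of its zona pellucida, with cDNA made by SMART-seq2, a method that amplifies polyadenylated RNA from very small samples. WT here names the injected mRNA. Groups used for comparison were 5 late 2-cell embryos and 7 inhibitor-treated blastocysts injected with R442Q mutant CHK1 mRNA, and 5 untreated WT zygotes. Neither uninjected embryos nor untreated blastocysts enter any comparison here, and the labels used here name no mouse strain. Stage, inhibitor and deposited table changed together between the 2 WT groups, so their parts in any difference cannot be told apart.

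At the late 2-cell stage the mouse embryo has just begun transcription from its own genome, while many RNAs stored in the oocyte are being degraded. By the blastocyst stage it consists of an outer epithelium, the trophectoderm, around a fluid-filled cavity, and an inner cell mass that separates into epiblast, the source of the body, and primitive endoderm, the source of the yolk sac. CHK1, the kinase encoded by Chek1, restrains entry into mitosis while DNA is damaged or still replicating.

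Levels below are FPKM (fragments per kilobase of transcript, relative to library depth) of the 43349 gene symbols that both deposited tables share, without mitochondrial genes, with each embryo rescaled to a sum of 1000000. A difference is the mean of log2(level + 1) in blastocysts minus that in late 2-cell embryos, tested with limma, and understates the change of low genes. A gene was called at a Benjamini-Hochberg adjusted p under 0.05 over all 13698 genes tested. Total deposited counts of the late 2-cell libraries ran from 5879327 to 6888226, and the depth of the blastocyst libraries in counts is unknown. The late 2-cell embryos held 13714 ± 613 (SD, n = 4) genes at a level of at least 1 and the blastocysts 10655 ± 822 (SD, n = 7), without overlap (exact two-sided permutation test, p = 0.00303, the smallest this design allows, adjusted over 2 measures 0.00606). WT blastocysts 4 and 6 had the fewest such genes, 9844 and 9269. Nothing in the labels states that the embryos of a group came from separate litters, so p-values measure only the spread between these embryos, which may be technical. The 50 highest genes held 32.1 ± 3.07% (SD, n = 4) of the column in late 2-cell embryos and 27.99 ± 2.47% (SD, n = 7) in blastocysts (exact two-sided permutation test, p = 0.0303), and the exact p was 0.0917 without late 2-cell embryo 2 or 3. The symbol CT010467.1 alone held 7.63% to 9.71% of the column in late 2-cell embryos and 1.06% to 3.32% in blastocysts. Its part in the difference of the 50 highest genes was not tested.

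Most genes differed between the stages. Of the genes tested, 8991 were called (65.6%), 3042 higher in blastocysts (22.2%) and 5949 lower (43.4%), and 8462 differed by at least 1 on the log2 scale (61.8%). The levels of the stages did not overlap for 6518 genes (47.6%). Of the genes tested, 1235 reached a level of 1 in no blastocyst and 660 in no late 2-cell embryo. These passed the filter of 1 or more in at least 4 embryos only through the other stage. Falls of at least 2 on the log2 scale numbered 3534 against 1565 rises of that size, and falls of at least 5 numbered 447 against 180 rises. The balance of directions depends on scaling: the median difference over all genes tested was -0.67, and moved to -0.12 with trimmed-mean (TMM) scaling and to 0.10 with quantile normalization. With TMM scaling 4027 genes were called higher (29.8%) and 4503 lower (33.3%), and with quantile normalization 4488 higher (32.5%) and 4144 lower (30.0%). Rescaling by protein-coding genes alone gave 2218 higher (18.1%) and 6020 lower (49.0%). Calls were tested against 0. A difference can be set beside the median of -0.67, which itself depends on the scaling. Across the genes tested, Pearson's r of log2 levels ran from 0.887 to 0.922 between late 2-cell embryos, from 0.845 to 0.956 between blastocysts and from 0.425 to 0.527 between embryos of different stages. In the plot of levels at both stages, most 2-cell and oocyte transcripts lie below the diagonal, and trophectoderm and respiratory chain genes lie mostly above the diagonal.

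**Figure D1:**
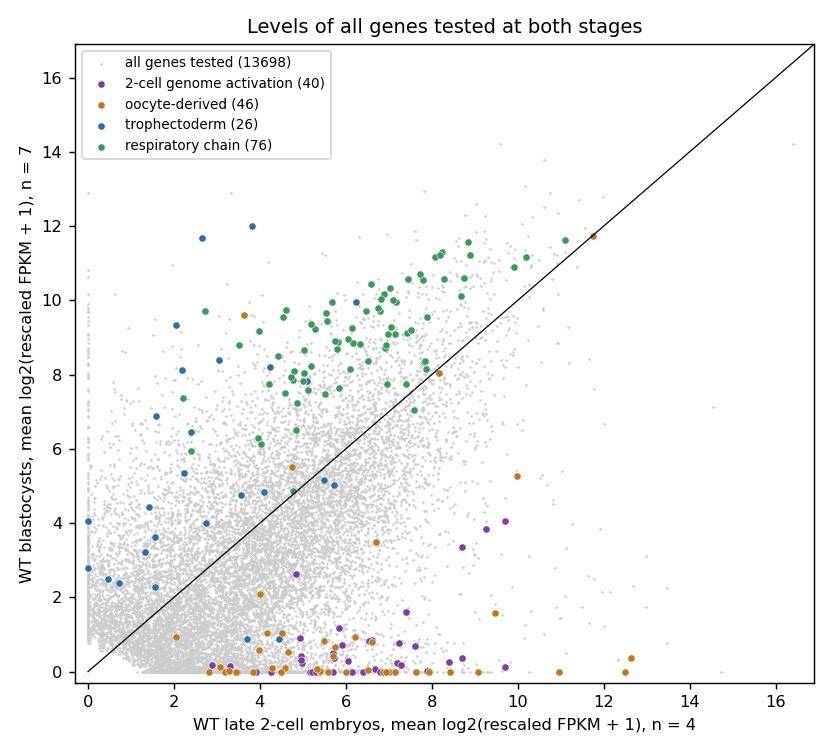
Mean log2(rescaled FPKM + 1) of each of the 13698 genes tested in 4 WT late 2-cell embryos (horizontal axis) and 7 WT blastocysts (vertical axis), with 4 gene lists in colour and equal levels on the black line. The 40 tested 2-cell transcripts all lie below the line, and 70 of the 76 respiratory chain genes were called higher in blastocysts.

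Chek1, the gene whose mRNA was injected, lay on chromosome 9 (chr9:36708482-36727065, minus strand, GRCm38; ENSMUSG00000032113.16). Its level was 519, 481, 525 and 921 in late 2-cell embryos 1 to 4 and between 7.48 and 34.9 (median 20.9) in the blastocysts. All blastocysts were below all late 2-cell embryos, with a difference of -4.90 (exact two-sided permutation test, n = 4 and 7, p = 0.00303). Late 2-cell embryo 4 stood above the other three, and without it the difference was -4.68. The same gene was at 9218 ± 3275 (SD, n = 5) in WT zygotes, given as a description from a separate table. Injected and endogenous Chek1 RNA were not separated here.

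Transcripts listed for the first wave of embryonic transcription were close to absent from blastocysts. None of the 40 tested members of a list of 45 measured 2-cell transcripts rose and all 40 fell, with a median difference of -5.39, and the stages did not overlap for 36. A gene was tested if at a level of 1 or more in at least 4 of the 11 embryos, so the 20 members that reached 1 in no blastocyst entered through the late 2-cell embryos and could only be lower in blastocysts. The other 20 reached 1 at both stages and fell too. Over all genes tested 43.4% were called lower, 33.3% without overlap and lower, and 39.9% among genes that reached 1 at both stages. The summed level of the list was 4345 to 13565 in late 2-cell embryos (median 6046) and 22.01 to 384 in blastocysts (median 45.1), and 14 members were listed at 0 in all 7 blastocysts. In WT zygotes, described from a separate table, the sum was already 3314 to 3940 (median 3501). Zscan4d, one of the Zscan4 family of zinc finger genes that mark the 2-cell state, was at 150.01, 7.89, 46.6 and 44.7 in late 2-cell embryos 1 to 4 and listed at 0 in every blastocyst. Zfp352, a retrotransposon-derived zinc finger gene, was at 310.3, 27.5, 149 and 116 and likewise listed at 0 in every blastocyst. Late 2-cell embryo 1 was highest and embryo 2 lowest for both genes, and the differences were -5.37 ± 0.56 (SE; adjusted p = 1.54e-06) for Zscan4d and -6.80 ± 0.51 (SE; adjusted p = 5.84e-08) for Zfp352. The largest fall of the list was that of AF067063, from 1249, 554, 585 and 1198 to between 0 and 0.755 (median 0), a difference of -9.59 ± 0.34 (SE; adjusted p = 5.05e-11). Usp17lb, a deubiquitinase gene of the same wave, stood at 242 to 637 and then 0 to 4.29, median 0, a difference of -8.35 ± 0.49. Members of these families share sequence: 49.6% of the 50-base stretches of Zscan4d and 70.7% of those of AF067063 also occur in other annotated genes, so reads may have been divided between copies. Under TMM scaling 39 members were called lower and under quantile normalization 39, none higher under either.

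The start regions of several of these genes hold the letters TATAAA, the core of the TATA box, a DNA element that positions the transcription machinery at many tightly regulated genes. Shown are the 120 bases before the RefSeq start of 3 of them (GRCm38.p6), chosen to compare copies within a family and across families, with the motif TATAAA in capitals.
Zscan4d: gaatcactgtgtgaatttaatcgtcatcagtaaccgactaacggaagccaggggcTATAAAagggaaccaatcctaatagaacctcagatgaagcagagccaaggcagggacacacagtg
Zscan4f: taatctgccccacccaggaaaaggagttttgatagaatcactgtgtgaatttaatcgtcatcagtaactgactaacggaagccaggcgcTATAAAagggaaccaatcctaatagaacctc
Usp17lb: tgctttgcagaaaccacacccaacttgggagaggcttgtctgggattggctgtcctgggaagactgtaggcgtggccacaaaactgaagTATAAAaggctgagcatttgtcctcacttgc
They lie at chr7:11166149-11166268 (minus strand), chr7:11397795-11397914 (plus strand) and chr7:104842584-104842703 (minus strand). The motif begins 65 bases before the annotated start in Zscan4d and 31 in both Zscan4f and Usp17lb. TATAAA or its reverse complement TTTATA was found in 9 of the 23 windows (39.1%, 250 bases before to 50 after the start, 22 genes) that matched the 2-cell list, in 13.6% of all 32851 windows, in 7.51% of those of genes called higher and in 8.23% of those of genes called lower. Of the 9, 4 were Zscan4 genes and 3 Usp17l genes, which share sequence and are not independent. The oocyte list had 17.02% and the trophectoderm list 9.09%. The motif was picked after several had been looked at, and a match is a description of the letters in a window.

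Oocyte-derived transcripts fell nearly as far. Of 46 tested members of 48, 41 fell and 2 rose (43.4% and 22.2% of all genes did), with a median of -5.16, and 21 members were listed at 0 in all blastocysts. The 28 members that reached a level of 1 in no blastocyst were tested only through the late 2-cell embryos and could only be lower in blastocysts. Of the other 18, 13 fell and 2 rose, against 39.9% and 20.9% of all genes that reached 1 at both stages. Omt2b and Omt2a, oocyte-expressed transcripts, were at 4125, 4409, 10043 and 6262 and at 4973, 4799.5, 10322 and 6570.0 in late 2-cell embryos 1 to 4. Omt2b was listed at 0 in all blastocysts and Omt2a was between 0 and 0.853 (median 0), so both stages were far apart, with differences of -12.51 ± 0.28 (SE; adjusted p = 4.49e-13) and -12.27 ± 0.32 (SE; adjusted p = 2.97e-12). Of the 50-base stretches of Omt2b, 35.2% occur in other genes, mainly Omt2a.
Oosp1, an oocyte-secreted protein gene, was at 1816, 1323, 3752 and 1763 and then listed at 0 in all blastocysts, a difference of -10.96 ± 0.31 (SE; adjusted p = 3.77e-12). Gdf9, the oocyte growth factor, was at 64.02, 89.9, 373 and 154, highest in embryo 3, and listed at 0 in all blastocysts (-7.09 ± 0.43 SE, adjusted p = 7.74e-09). Zp3, the sperm-binding zona pellucida gene, was at 51.4, 155, 99.98 and 109 and then between 0 and 4.31 (median 0), without overlap (-5.82 ± 0.57 SE, adjusted p = 8.28e-07). Nlrp5, a maternal-effect gene of the subcortical complex, dropped from 41.5, 31, 64.9 and 34.7 to between 0 and 0.0408 (median 0) (-5.39 ± 0.31 SE, adjusted p = 4.38e-09).

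Not every gene named for its role in the oocyte fell. Khdc3, another member of the subcortical maternal complex, was at 24.2, 26.2, 3.83 and 5.998 and then between 193 and 1957 (median 836), every blastocyst above every late 2-cell embryo (5.99 ± 0.63 SE, adjusted p = 1.68e-06). Of its 50-base stretches, 34.1% lie in Gm20509, an annotated transcript that overlaps its exons on the same strand, so the reads of both could have been divided. Ooep, of the same complex, stood at 21.04 to 37.5 and 30.8 to 61.1, median 46.6 (0.77 ± 0.27, adjusted p = 0.0235). It was not called when scaled by protein-coding genes alone (0.44, adjusted p = 0.178), without late 2-cell embryo 1, 2 or 4 (adjusted p = 0.0579, 0.0758 and 0.0879) or without blastocysts 4 and 6 (adjusted p = 0.0585), which left Khdc3 as the only rise of the list in the first and last of these. Nor was Ooep called with replicate numbers fitted as blocks (0.61, adjusted p = 0.176). Dppa3, the maternal factor also known as Stella that is expressed again in pluripotent cells, was at 3714, 3415, 2728 and 4025 and then between 1724 and 11275 (median 3297). Its stages overlapped and it was not called (-0.02 ± 0.39 SE, adjusted p = 0.963), and the difference turned to 0.63 with TMM scaling. Blastocyst 2 held the highest Dppa3, 11275, which was 85.0% of the summed level of the oocyte list in that embryo. The summed level of the list was 18356 to 35075 at the late 2-cell stage and 2855 to 13259 in blastocysts, and Dppa3 alone made up 59.3% to 85.3% of the sum in every blastocyst.

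Keratins and transcription factors of the outer epithelium were among the genes that rose. Of the 26 trophectoderm genes, all tested, 19 rose and 2 fell, with a median of 2.77, against 22.2% of all genes called higher, and 21 rose under TMM scaling. Their summed level was 264 to 530 in late 2-cell embryos and 5613 to 28344 in blastocysts. The 2 members that reached a level of 1 in no late 2-cell embryo were tested only through the blastocysts. Of the other 24, 17 rose and 2 fell, against 20.9% and 39.9% of all genes that reached 1 at both stages. Krt8, an intermediate filament protein of simple epithelia (chr15:101996698-102004482, minus strand, GRCm38), was at 16.1, 0.923, 21.1 and 1.17 in late 2-cell embryos 1 to 4 and between 1188 and 11847 (median 2456) in the blastocysts. Every blastocyst was above every late 2-cell embryo, with blastocyst 2 far above the next, and the difference was 9.02 ± 0.73 (SE; adjusted p = 1.21e-07). Krt18, its filament partner, was at 34.1, 5.48, 28.1 and 4.798 and then between 1536 and 12694 (median 3439.7) (8.20 ± 0.62 SE, adjusted p = 6.09e-08). Of the 50-base stretches of Krt8, 26.9% occur in other genes, mainly the pseudogene Krt8-ps.
Cdx2, the transcription factor required for the trophectoderm, was listed at 0 in all 4 late 2-cell embryos and was between 6.82 and 54.1 (median 13.2) in the blastocysts, all of which had it (4.05 ± 0.51 SE, adjusted p = 8.87e-06). Cdx2 was thus tested only through the blastocysts and could only be higher there. Gata3, another regulator of that lineage, was at 9.34, 2.38, 2.95 and 2.03 and between 135 and 634 (median 265), without overlap (5.95 ± 0.44 SE, adjusted p = 5.37e-08). Eomes, which maintains trophoblast stem cells, stood at 0.339 to 4.98 and then 4.54 to 15.01, median 7.82, a smaller difference of 1.91 ± 0.46 (adjusted p = 0.00218). Tfap2c and Tead4, factors already present before the lineage forms, were at 43.3 to 74.6 and 9.41 to 25.2 in late 2-cell embryos and were not called, with differences of -0.70 and 0.74. Tead4 was called higher with TMM scaling (1.36, adjusted p = 0.00508), quantile normalization (1.43, adjusted p = 0.00292) and without blastocyst 4 (0.97, adjusted p = 0.0193). The 2 falls were Slc7a2, an amino acid transporter gene, at 16.01, 21.5, 41.1 and 13.4 and then between 0.0955 and 3.36 (median 0.408) (-3.59 ± 0.46 SE, adjusted p = 1.17e-05), and Hand1, a factor of later trophoblast, at 0 to 58.4 and then 0 to 5.97, median 0 (-2.83 ± 0.95), which was not called without late 2-cell embryo 2 or 3 (adjusted p = 0.0559 and 0.0694) or in an exact permutation test per gene (adjusted p = 0.0701). In whole embryos more cells of a type and more RNA per cell cannot be told apart.

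**Figure D2:**
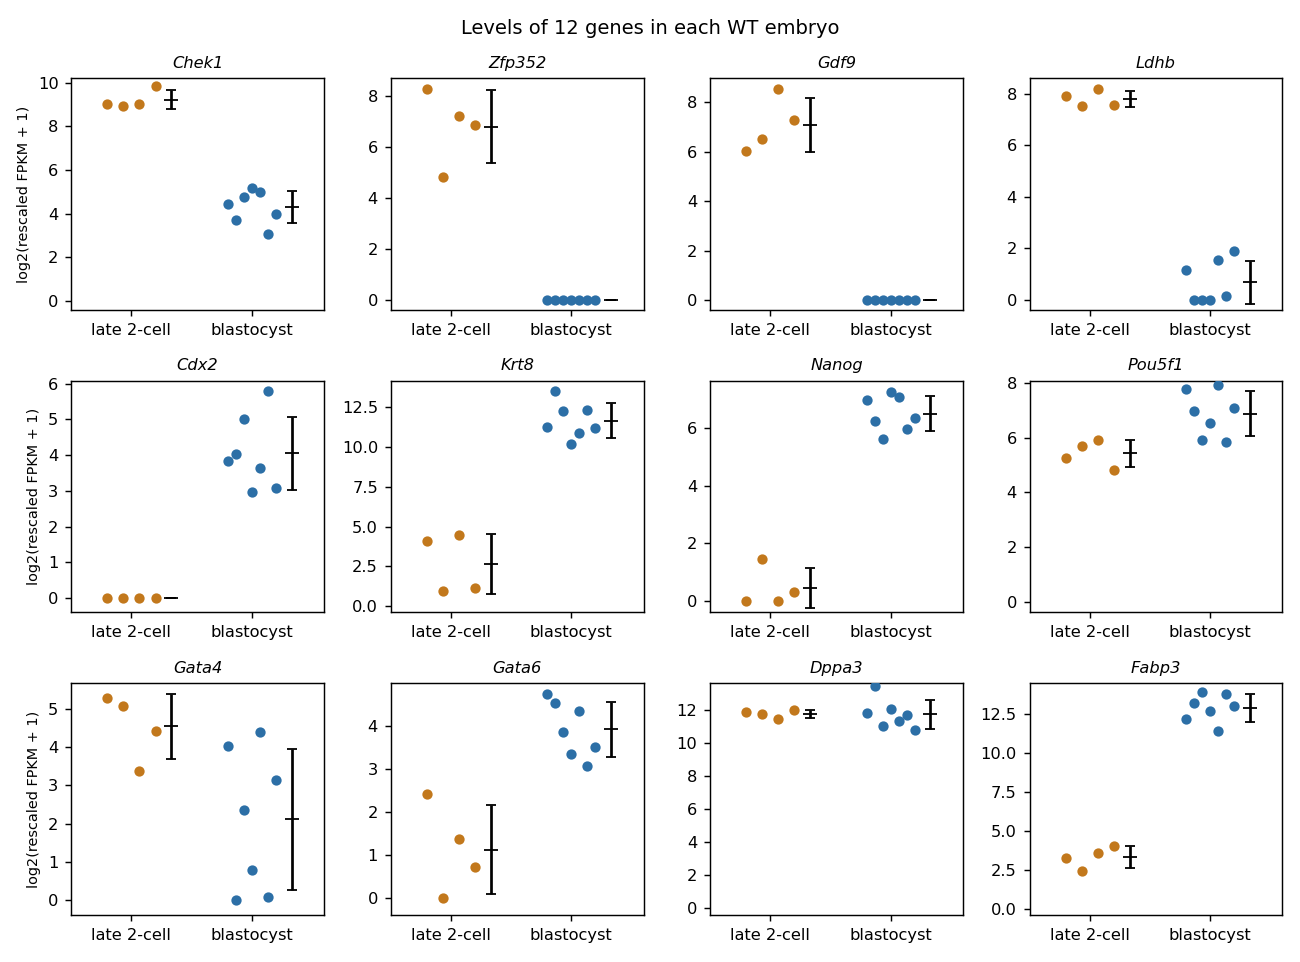
Levels of 12 genes, as log2(rescaled FPKM + 1), in each of 4 WT late 2-cell embryos (orange) and 7 WT blastocysts (blue), with the mean and SD in black. Chek1, Zfp352, Gdf9 and Ldhb were lower in every blastocyst than in any late 2-cell embryo, Cdx2, Krt8, Nanog, Gata6 and Fabp3 were higher, and Pou5f1, Gata4 and Dppa3 overlapped.

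Of 24 inner cell mass genes 12 rose and 1 fell, with a median of 1.32, against 22.2% of all genes higher and 43.4% lower. The 2 that reached a level of 1 in no late 2-cell embryo, Sox2 among them, were tested only through the blastocysts. Of the other 22, 10 rose and 1 fell, against 20.9% and 39.9% of all genes that reached 1 at both stages. Nanog, a transcription factor of the epiblast, was at 0, 1.73, 0 and 0.24 in late 2-cell embryos 1 to 4 and between 48.4 and 151 (median 80.1) in the blastocysts, without overlap (6.05 ± 0.40 SE, adjusted p = 1.73e-08). Pou5f1, which encodes OCT4 and is also carried over from the oocyte, was at 37.8, 51.5, 59.3 and 26.9 and between 56.4 and 243 (median 127). Late 2-cell embryo 3 was above blastocyst 6 and below the rest, and the difference was 1.45 ± 0.41 (SE; adjusted p = 0.00651). Sox2, their partner factor, was at 0.69, 0, 0 and 0.127 and between 0 and 11.01 (median 5.09), low at both stages and overlapping (1.71 ± 0.60 SE, adjusted p = 0.0227), and it was no longer called without late 2-cell embryo 2, 3 or 4 (adjusted p = 0.0568, 0.0576 and 0.0504). Dppa5a, an RNA-binding protein gene of pluripotent cells, held 78.5% to 95.6% of the list's summed level in blastocysts and stood at 434 to 1896 and then 13567 to 32312, median 18797 (4.62 ± 0.34). Tdgf1 (5.41), Utf1 (5.19) and Gdf3 (3.83), genes of the pluripotent state, rose as well. The single fall was Fgf4, the epiblast ligand that directs neighbouring cells to primitive endoderm, at 16.7, 77.9, 18.6 and 28.8 and then between 0 and 11.1 (median 4.14), without overlap (-2.41 ± 0.66 SE, adjusted p = 0.00526). Klf4 (-0.83), Esrrb (-0.76) and Sall4 (0.41), further pluripotency factors, were not called, though Sall4 was with TMM scaling (1.06, adjusted p = 0.00194) and quantile normalization (0.70, adjusted p = 0.0251).

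Of 20 primitive endoderm genes 15 were tested, 7 rose and 3 fell, with a median of 1.76, against 22.2% of all genes higher and 43.4% lower. Sox17 reached a level of 1 in no late 2-cell embryo and was tested only through the blastocysts. Of the other 14, 6 rose and 3 fell, against 20.9% and 39.9% of all genes that reached 1 at both stages. The lowest difference of the list was -3.44, of a gene not named here. With TMM scaling 9 rose and 2 fell, with quantile normalization 12 of 17 rose and 1 fell, and the median was 0.87 when scaled by protein-coding genes alone. Gata6, the earliest factor of the lineage, was at 4.35, 0, 1.56 and 0.635 and between 7.38 and 25.9 (median 13.4), without overlap (2.79 ± 0.49 SE, adjusted p = 1.85e-04). Sox17, a later factor, was at 0, 0, 0.555 and 0 and between 1.73 and 175 (median 17.01), where blastocysts 1 and 5 stood far above the rest with 121 and 175 (4.05 ± 0.99 SE, adjusted p = 0.00247). Gata4, which acts with Gata6, was already present at 38.5, 32.9, 9.43 and 20.5 and was between 0 and 19.98 (median 4.1) in blastocysts, overlapping. It was called lower (-2.44 ± 0.85 SE, adjusted p = 0.0207), but not with TMM scaling (-1.94, adjusted p = 0.0629), quantile normalization (-1.63, adjusted p = 0.0813) or the deposited FPKM (-1.98, adjusted p = 0.0524). Nor was it called without late 2-cell embryo 1 (adjusted p = 0.0552) or 2 (adjusted p = 0.0504), or without blastocysts 4 and 6 (adjusted p = 0.0593). Pdgfra, the receptor that marks the lineage, was at 0.465, 2.798, 10.2 and 1.002 and between 0.0212 and 24.6 (median 4.22), overlapping and not called (0.68 ± 0.91 SE, adjusted p = 0.528). The basement membrane genes Col4a1 (2.73 ± 0.83), Lamc1 (3.16 ± 0.53) and Sparc (3.23 ± 0.57) rose, as did Dab2, an endocytic adaptor (3.99 ± 0.43).

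The blastocysts differed among themselves in these lineage genes. Blastocyst 6 was above the median of the 7 for 20 of the 26 trophectoderm genes and below it for 4. It was below the median for 20 of the 24 inner cell mass genes and above it for 2, and below it for 16 of the 19 primitive endoderm genes found in a blastocyst, with Dab2 the 1 gene above. In that embryo Cdx2 was 54.1 and Gata3 634, the highest of the 7, while Sox2 and Fgf4 were listed at 0, Pdgfra was 0.0212 and Spp1, an inner cell mass gene, was 2.22 against 464 to 2917 in the other six. Only 13 of the 24 inner cell mass genes reached a level of 1 there, against 22 to 24 in the other blastocysts. It also stood apart on the second principal component of the 11 embryos, at 111 against -44.1 to 8.64 for the other blastocysts, with 5.98% of the variance, and it had the fewest genes at a level of 1 or more. Blastocysts 1 and 5 were above the median for 20 and 21 of the 24 inner cell mass genes and for 14 and 18 of the 19 primitive endoderm genes, while the inner cell mass gene Dppa5a was below it in blastocyst 1, and Dab2 was at the median in blastocyst 1 and the lowest of the 7 in blastocyst 5. Blastocyst 3 was above it for 22 of the 26 trophectoderm genes and for 4 of the 24 inner cell mass genes. Which cells each embryo held was not measured. Without blastocysts 4 and 6, the trophectoderm list had 20 rises and 2 falls, the inner cell mass list 13 and 2 and the primitive endoderm list 10 and 2.

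**Figure D3:**
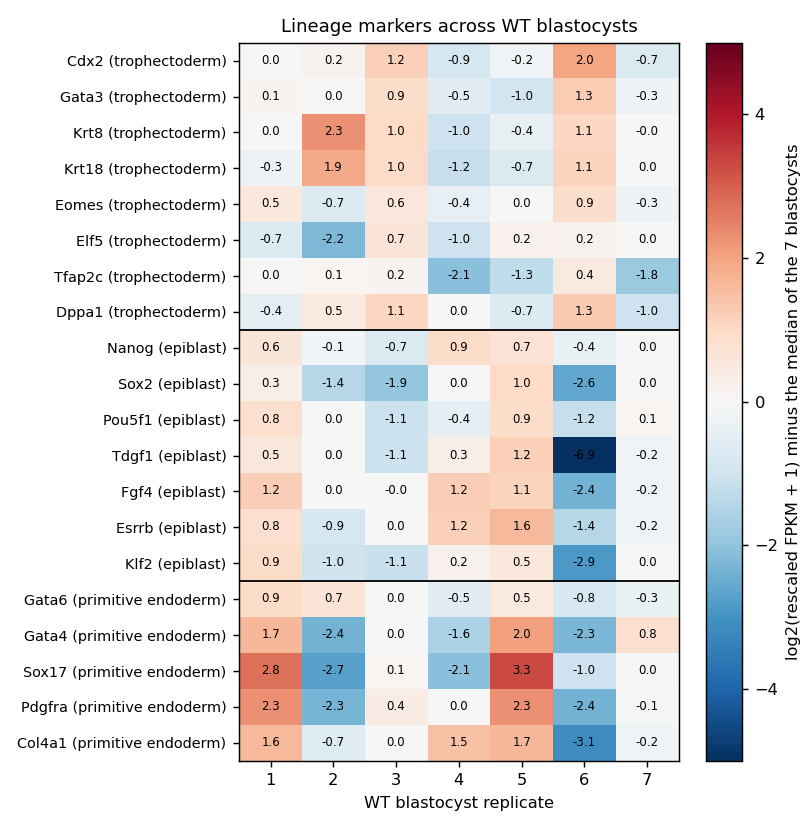
Log2(rescaled FPKM + 1) of 20 lineage markers, a choice from the 3 lists made with results known, in each of the 7 WT blastocysts, minus the median of the 7, with red above and blue below the median and the value printed in each cell. Blastocyst 6 is above the median in all 8 trophectoderm rows and below it in all 12 others, and blastocysts 1 and 5 are above it in all 12 rows of the inner lineages, while other members, such as Dab2, which ran the other way in blastocysts 5 and 6, are not shown.

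Genes that seal the epithelium and move water into the cavity rose in part. Of 26 junction and transport genes, all tested, 15 rose and 4 fell (median 1.03), where 22.2% of all genes were higher and 43.4% lower. Of the 23 that reached a level of 1 at both stages 13 rose and 3 fell, against 20.9% and 39.9% of all such genes. Aqp3, a water and glycerol channel, was at 10.9, 0, 10.8 and 1.61 in late 2-cell embryos 1 to 4 and between 50.3 and 259.8 (median 126) in blastocysts, without overlap (4.82 ± 0.63 SE, adjusted p = 1.24e-05). Fxyd4, a regulator of the sodium pump, was listed at 0 in all late 2-cell embryos and was between 79.5 and 236 (median 138) in blastocysts (7.20 ± 0.31 SE, adjusted p = 2.34e-10). It was thus tested only through the blastocysts and could only be higher there. Atp1b1, the beta subunit of that pump, was at 54.4, 37.2, 27.2 and 20.2 and between 42.9 and 115 (median 68.2), overlapping (1.05 ± 0.33 SE, adjusted p = 0.0126), and was not called without late 2-cell embryo 4 (0.83, adjusted p = 0.0574) or when scaled by protein-coding genes alone (0.72, adjusted p = 0.068). Cldn4 (6.11 ± 0.45) and Cldn7 (3.39 ± 0.34), tight junction claudins, and the desmosome genes Dsg2 (2.75 ± 0.38) and Dsp (2.07 ± 0.36) rose. Cdh1, E-cadherin, was at 29.4 to 36.7 and 11.6 to 98.3, median 49.3, and was not called (0.51), though it was with TMM scaling (1.14, adjusted p = 0.0271), quantile normalization (1.03, adjusted p = 0.0258) and without blastocyst 4 (0.83, adjusted p = 0.0227). Among the falls, Atp1b3, another beta subunit gene of the pump, was at 181 to 289.8 and 14.5 to 56, median 31.3 (-2.73 ± 0.34), and Aqp9, a water and solute channel, at 118 to 214 and 10.8 to 86.5, median 53.5 (-1.86 ± 0.49), both without overlap.

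Receptors and carriers for maternal nutrients included Fabp3, among the genes with the largest rises. Of 24 endocytic and lipid carrier genes 19 were tested, 11 rose (57.9%) and 6 fell (31.6%), with a median of 1.15, against 22.2% and 43.4% over all genes. Fabp3, a fatty acid carrier, was at 8.603, 4.29, 10.9 and 15.5 and between 2703 and 15120.4 (median 8325), without overlap (9.56 ± 0.44 SE, adjusted p = 4.88e-10), and 29.2% of its 50-base stretches occur in other genes, mainly Fabp3-ps1. Lrp2, the endocytic receptor megalin, was at 6.76, 1.26, 2.77 and 1.496 and between 4.22 and 32.6 (median 14.7), overlapping (1.80 ± 0.57 SE, adjusted p = 0.0126). Apoe (3.54 ± 0.38) and Apoa1 (4.86 ± 0.88), lipoprotein genes, rose. Amn, the partner of the receptor cubilin, fell from 30.7, 16.3, 43.3 and 11.7 to between 0 and 6.75 (median 0.541) (-3.56 ± 0.61 SE, adjusted p = 1.41e-04), and Cubn did not pass the filter on low levels. The lysosomal protease Ctsd rose (2.28 ± 0.44) while Ctsb (-2.03 ± 0.30) and Ctsl (-1.36 ± 0.29) fell, Ctsl not past the threshold with TMM scaling (-0.70, adjusted p = 0.0521).

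Of 26 tested genes of actin, its partners and other cytoskeleton, 19 rose and 2 fell, with a median of 2.96 (2.34 with quantile normalization), where all genes were higher in 22.2% and lower in 43.4%. Their summed level was 3738 to 4833 in late 2-cell embryos and 25964 to 54346 in blastocysts. Actb, cytoplasmic beta-actin, stood at 178 to 302 and then 6049 to 12268, median 6862 (5.13 ± 0.22), and Pfn1, the actin-monomer binder profilin, at 146 to 263 and then 2832 to 4957, median 3819.5 (4.28 ± 0.21). S100a11, a calcium-binding protein, was at 12.97, 8.63, 22.8 and 1.48 and between 665 and 2396 (median 1549), without overlap (7.19 ± 0.53 SE, adjusted p = 5.46e-08). The 2 falls were Vil1, the microvillus protein villin, from 55.7, 45.5, 76.5 and 30.6 to between 0 and 0.944 (median 0) (-5.41 ± 0.37 SE, adjusted p = 2.47e-08), and Tubb6, a tubulin, at 90.5 to 183 and then 0.127 to 9.07, median 3.24 (-4.98 ± 0.63). Vil1 reached a level of 1 in no blastocyst, so it was tested only through the late 2-cell embryos and could only be lower.

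Nearly all respiratory chain genes rose, while genes of sugar use moved in both directions. All 76 nuclear-encoded respiratory chain genes were tested, 70 rose and none fell, the median was 2.89, and the stages did not overlap for 66, against 22.2% of all genes higher and 14.3% higher without overlap. Under TMM scaling 75 rose and under quantile normalization 68, with no fall under either, and 1 fell when scaled by protein-coding genes alone (68 rose) or without blastocysts 4 and 6 (69 rose). Their summed level was 1.10% to 1.43% of the column in late 2-cell embryos and 4.99% to 6.98% in blastocysts. Ndufa3, a subunit of complex I, was at 11.3, 10.8, 2.18 and 3.105 and between 623 and 1069.9 (median 868) (6.98 ± 0.35 SE, adjusted p = 1.40e-09). Of 17 tricarboxylic acid cycle genes 13 rose and 2 fell (76.5% and 11.8%, median 2.25). Suclg1, a subunit of succinyl-CoA ligase, was at 1.22, 6.64, 1.26 and 4.93 and between 344 and 512 (median 451) (6.81 ± 0.33 SE, adjusted p = 9.69e-10), and Pcx, pyruvate carboxylase, fell from 15.6, 7.39, 6.62 and 26.1 to between 0 and 3.24 (median 1.28) (-2.57 ± 0.50 SE, adjusted p = 4.18e-04).
The glycolysis list had 8 rises and 5 falls among 24 genes, where 22.2% of all genes were higher and 43.4% lower, and a median of 0.04. The median turned to -0.29 when scaled by protein-coding genes alone (7 rises and 5 falls), and was 0.69 with TMM scaling (9 and 2) and 0.38 with quantile normalization (8 and 4). Slc2a3, the glucose transporter GLUT3, was at 12.2, 22.3, 26.2 and 11.3 and between 41.4 and 304 (median 157), without overlap (2.81 ± 0.51 SE, adjusted p = 2.66e-04). Slc2a1, the transporter GLUT1, was at 66.7, 13.4, 26.5 and 27.6 and between 5.27 and 39.5 (median 25.1) and was not called (-0.38 ± 0.50 SE, adjusted p = 0.518). Hk2, an inducible hexokinase, was at 2.901, 0.294, 1.56 and 2.54 and between 50.6 and 187 (median 83.8) (5.18 ± 0.42 SE, adjusted p = 1.37e-07). Gapdh, often used as a reference gene, was at 230.5, 206, 118 and 159 and between 877 and 1407 (median 1299), without overlap (2.76 ± 0.22 SE, adjusted p = 9.05e-08). Ldhb, the lactate dehydrogenase subunit of the oocyte, was at 238, 184, 289 and 191 and between 0 and 2.67 (median 0.0955) (-7.13 ± 0.45 SE, adjusted p = 1.02e-08), whereas Ldha was at 28.3 to 120.05 and 0.053 to 161, median 43.9 and was not called (-1.33). With replicate numbers fitted as blocks Ldha was called (-1.37, adjusted p = 0.0245). The lactate and pyruvate carrier Slc16a1 fell (-2.16 ± 0.47).

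Among genes of protein synthesis and turnover, more rose than fell in each of 3 lists, while over all genes 22.2% were higher and 43.4% lower (32.5% and 30.0% with quantile normalization). Of 83 tested cytoplasmic ribosomal protein genes 73 rose and 2 fell (median 1.62), and under quantile normalization 64 rose and 3 fell. Their share of the column was 3.28% to 5.76% in late 2-cell embryos and 10.9% to 17.5% in blastocysts. Rps18, a small-subunit protein, was at 227, 434, 207 and 283 and between 1559 and 3380.0 (median 2516) (3.17 ± 0.24 SE, adjusted p = 5.38e-08). The 2 falls were Rpl3l and Rpl10l, tissue-restricted copies of ribosomal genes: Rpl3l was at 2.83, 4.46, 7.52 and 7.68 and listed at 0 in all blastocysts (-2.65 ± 0.26 SE, adjusted p = 1.01e-06), and Rpl10l stood at 112 to 199 and then 11.8 to 109, median 81.4 (-1.28 ± 0.50). Rpl3l was tested only through the late 2-cell embryos and could only be lower in blastocysts. Rpl10l was not called with TMM scaling (-0.63, adjusted p = 0.29), nor without late 2-cell embryo 1 or 4 or blastocyst 3 (adjusted p = 0.0646, 0.0938 and 0.0658). Many ribosomal protein genes have processed pseudogenes, and 19.04% of the 50-base stretches of Rps18 occur in other genes. Of 78 mitochondrial ribosomal protein genes 53 rose and 8 fell (median 1.47), from Mrpl14 at 2.89, 10.7, 5.46 and 5.83 and between 146 and 185 (median 173) (4.65 ± 0.28 SE, adjusted p = 6.12e-09) to Mrpl57 at 235, 328, 202 and 238 and between 37.7 and 69.9 (median 47.5) (-2.27 ± 0.23 SE, adjusted p = 9.51e-07). Of 37 tested proteasome genes 28 rose and 3 fell (median 1.24). Psmb6, a catalytic subunit, was at 76.3, 172, 36.5 and 101 and between 931 and 1648 (median 1098) (3.76 ± 0.33 SE, adjusted p = 2.60e-07). Psmb10, the subunit of the immunoproteasome, was at 72.6, 61.1, 38.2 and 46.2 and between 0.233 and 32.5 (median 22.5) (-1.89 ± 0.75 SE, adjusted p = 0.0388), and it was not called with TMM scaling (-1.29, adjusted p = 0.161), quantile normalization (-1.24, adjusted p = 0.0871), or without late 2-cell embryo 1, 2 or 4 or blastocyst 2 (adjusted p = 0.0550 to 0.0815).

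**Figure D4:**
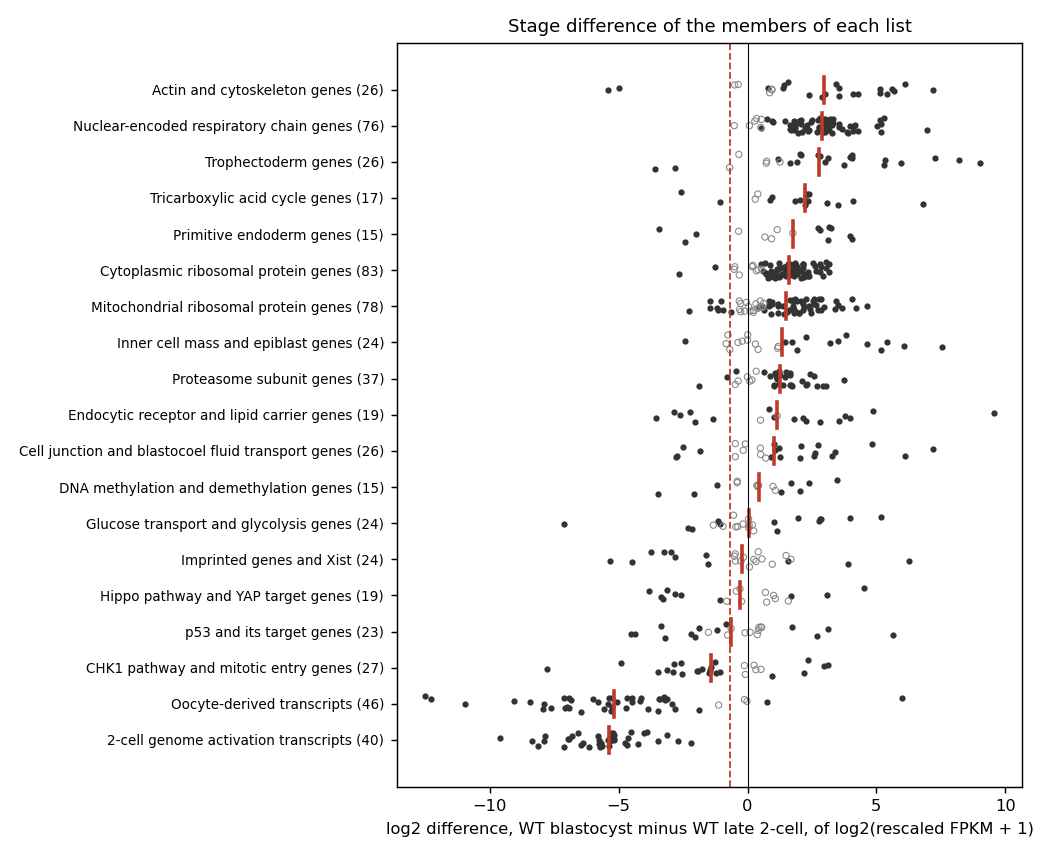
Log2 difference (WT blastocyst minus WT late 2-cell) of each tested member of 19 gene lists, filled where called at an adjusted p under 0.05, with the list median in red, the number tested in parentheses and the median of all genes (-0.67) dashed. The 2-cell and oocyte lists have medians of -5.39 and -5.16, and the actin, respiratory chain and trophectoderm lists have medians of 2.96, 2.89 and 2.77.

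**Figure D5:**
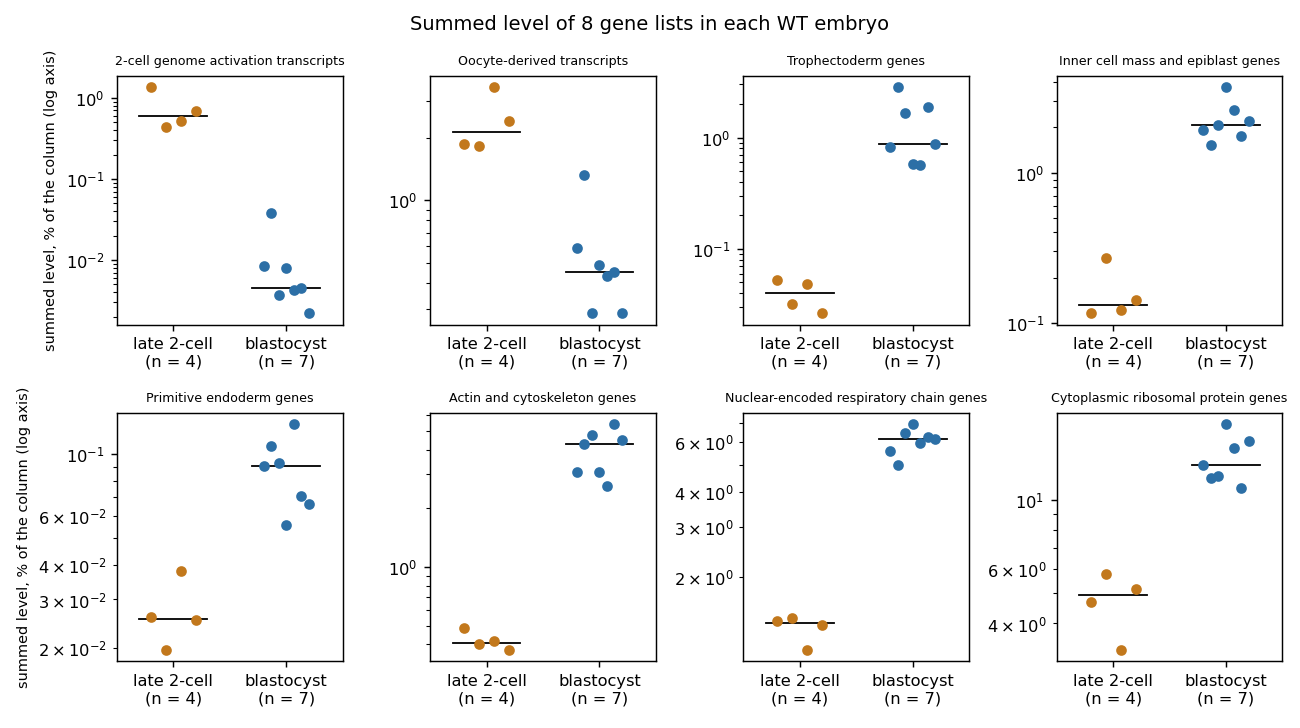
Summed level of 8 gene lists as a percent of the rescaled column (log axis) in each of 4 WT late 2-cell embryos (orange) and 7 WT blastocysts (blue), with the group median as a line. The groups do not overlap in any panel, and blastocyst 2 is the highest blastocyst for the 2-cell, oocyte and trophectoderm sums.

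The CHK1 pathway and the mitotic switch mostly fell. Of 27 genes 17 fell and 5 rose, with a median of -1.41, against 43.4% of all genes lower and 22.2% higher. With TMM scaling the median was -0.75, and 14 were lower and 6 higher, against 33.3% and 29.8% of all genes. Among the kinases and sensors, Atm (-1.94 ± 0.31), Rad17 (-2.54 ± 0.29) and Hus1 (-1.78 ± 0.41) fell, Atr was not called (0.32, and 1.29 with quantile normalization, adjusted p = 0.0111), and Chek2 rose (2.19 ± 0.27). Atrip, the partner of ATR, was at 19.2, 19.3, 16.6 and 17.6 and between 122 and 234 (median 155) in blastocysts, the largest rise of the list (3.14 ± 0.22 SE, adjusted p = 3.56e-08), and 15.1% of its 50-base stretches lie in other genes, mainly Trex1, whose exons overlap it. Wee2, the oocyte kinase that inhibits CDK1, was at 257, 179, 517 and 179 and between 0 and 2.202 (median 0) (-7.76 ± 0.44 SE, adjusted p = 3.89e-09), and Wee1, its somatic counterpart, was at 1.83 to 10.7 and 0.52 to 11.1, median 5.05 and was not called (0.25, and 1.27 with quantile normalization, adjusted p = 0.025). Ccnb1, cyclin B1, was at 674, 903, 794 and 779 and between 256 and 636 (median 313), without overlap (-1.23 ± 0.23 SE, adjusted p = 3.58e-04), and was not called with TMM scaling (-0.57, adjusted p = 0.0636). Of its 50-base stretches 23.4% occur in other genes, mainly Ccnb1-ps. Ccnb2, cyclin B2, moved the other way, 40.3 to 60.5 and then 141 to 354, median 283 (2.34 ± 0.25). Cdc25c (-3.12 ± 0.33), a phosphatase that activates CDK1, and Ccna2 (-2.91 ± 0.36), cyclin A2, fell.

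For p53 and its targets 9 of 23 tested genes fell and 4 rose, shares (39.1% and 17.4%) near the 43.4% and 22.2% over all genes. Their median of -0.64 was close to that of all genes and turned to 0.02 with TMM scaling and 0.25 with quantile normalization. Mdm4, an inhibitor of p53, was at 655, 919, 1403 and 1136 and between 20.1 and 72.7 (median 47.8), without overlap (-4.53 ± 0.32 SE, adjusted p = 3.23e-08). Cdkn1a, the cell cycle inhibitor p21, was at 476, 204, 214 and 198 and between 30.4 and 541 (median 178), overlapping and not called (-0.64 ± 0.60 SE, adjusted p = 0.364, and 0.02 with TMM scaling). Ccng1, cyclin G1, was at 134, 13.8, 21.1 and 17.9 and between 15.9 and 44.2 (median 35.1) and was not called (-0.10 ± 0.54 SE, adjusted p = 0.88), with a sign that turned with scaling (0.53 with TMM). Late 2-cell embryo 1 was the highest of the 11 for Ccng1 and second highest for Cdkn1a. Perp, a target that also builds desmosomes, was at 1.11, 0.56, 0 and 1.17 and between 36.01 and 223 (median 66.3) (5.63 ± 0.50 SE, adjusted p = 3.08e-07), and Gadd45a, a growth arrest gene, fell (-4.36 ± 0.50).

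Enzymes that write and erase DNA methylation showed 5 rises and 3 falls among 15 genes (median 0.43), against 22.2% and 43.4% of all genes. With TMM scaling 9 rose and 1 fell, against 29.8% and 33.3% of all genes. Dnmt3b, a de novo methyltransferase, was at 5.77, 8.24, 8.65 and 5.62 and between 23.3 and 90.8 (median 30.1), without overlap (2.39 ± 0.41 SE, adjusted p = 1.39e-04). Dnmt3l, its cofactor, was at 92.3, 39.5, 101 and 38.95 and between 49.7 and 156 (median 78.1), overlapping and not called (0.36 ± 0.36 SE, adjusted p = 0.388), though called with TMM scaling (1.01, adjusted p = 0.018). Tet3, the dioxygenase stored in the oocyte, was at 16.8, 21.7, 27.6 and 23.03 and between 0 and 4.31 (median 0.836) (-3.49 ± 0.44 SE, adjusted p = 9.57e-06), while Tet1 (1.69 ± 0.34) and Tet2 (2.05 ± 0.37) rose. Tdg, a DNA glycosylase of the demethylation path, was at 3.51, 2.25, 12.1 and 0 and between 16.8 and 93.6 (median 37.9) (3.48 ± 0.59 SE, adjusted p = 1.33e-04), with 35.5% of its 50-base stretches in other genes, mainly Tdg-ps.
Of 24 tested imprinted genes (Xist included) 8 fell and 3 rose, and of 19 tested Hippo pathway genes 7 fell and 3 rose, where 43.4% of all genes were lower and 22.2% higher. The shares of falls (33.3% and 36.8%) and of rises (12.5% and 15.8%) were both below those over all genes. Their medians were -0.21 and -0.30 and both turned positive with TMM scaling (0.41 and 0.32) and with quantile normalization. Without blastocysts 4 and 6, 7 Hippo genes rose and 7 fell. Slc38a4, an amino acid transporter gene, was at 1.75, 1.02, 1.74 and 0 and between 93.2 and 214 (median 150.01) (6.25 ± 0.35 SE, adjusted p = 3.59e-09), and Phlda2, a restrainer of placental growth, was at 370.2, 688, 334 and 288 and between 0 and 35.8 (median 12.5) (-5.33 ± 0.78 SE, adjusted p = 3.68e-05). Xist, the RNA that coats and silences an X chromosome in female cells, was at 0.76, 0, 0.0146 and 1.002 and between 0.0284 and 42.6 (median 1.85) and was not called (1.49 ± 0.93 SE, adjusted p = 0.171). Yap1, the Hippo effector, fell (-2.83 ± 0.33), and its target Ctgf was at 0, 2.48, 0 and 0 and between 0.965 and 200.4 (median 32.03), with 1 late 2-cell embryo inside the blastocyst range (4.52 ± 0.94 SE, adjusted p = 7.76e-04).

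Outside the lists, the largest differences of all were in short or repeated transcripts. The 6 largest rises were Gm37750, Gm22133, Gm27754, Gm28017, Gm24303 and Gm25735, which GENCODE M21 annotates as 4 microRNA genes, 1 miscellaneous RNA and 1 gene to be experimentally tested. Each was listed at 0 in all 4 WT late 2-cell embryos and so was tested only through the blastocysts. Gm22133 was between 5522 and 9574 (median 7637) in blastocysts, and all of its 50-base stretches lie inside exons of the ferritin gene Ftl1. Of 74 tested microRNA genes 69 were higher and none lower, but 68 were listed at 0 in every late 2-cell embryo and so were tested only through the blastocysts. Of the 6 that reached a level of 1 at both stages, 1 was higher. Of 136 genes called higher and listed at 0 in all late 2-cell embryos of both mRNAs and in all WT zygotes, 68 were microRNA genes and 22 protein-coding. Fragments of such short genes are converted to FPKM over a very short length, the late 2-cell and blastocyst values stand in separate tables, and the part of either in these values was not tested.
Gm10925 had the largest fall, from 27281, 21803, 32592 and 28155 to 0 in all blastocysts, and all of its 50-base stretches occur in the mitochondrial gene mt-Atp6, which is listed in the blastocyst table only. Gm37110 and Gm44183 had identical values in every embryo. Among protein-coding genes, named after their values were seen, the largest rises beside Fabp3 and Krt8 were AA467197 at 6.03, 0.168, 1.26 and 11.2 and between 809.8 and 3086 (median 2022) (8.99 ± 0.55 SE, adjusted p = 7.96e-09), Adh1, an alcohol dehydrogenase, Sycn, syncollin, and Gm11032. Adh1 and Sycn were listed at 0 in all late 2-cell embryos and were between 53.8 and 1860.3 (median 424) and between 217 and 848 (median 358) in blastocysts, with differences of 8.70 ± 0.80 (SE; adjusted p = 4.57e-07) and 8.57 ± 0.32 (SE; adjusted p = 7.04e-11). Both were thus tested only through the blastocysts and could only be higher there. Tcl1b1 and D13Ertd608e fell from 309.8, 586, 1896 and 1126 and from 1360.2, 288, 516 and 942 to between 0 and 0.155 (median 0) and to 0 in all blastocysts. Like Gm10925, they were tested only through the late 2-cell embryos and could only be lower in blastocysts.

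Levels in WT zygotes place these genes before and after genome activation, as a description across another table. Of the 3534 genes that fell by at least 2, 1398 had a late 2-cell mean at least 4 times the zygote mean, and 421 had a zygote mean at least 4 times the late 2-cell mean (39.6% and 11.9%, against 30.4% and 11.5% of all genes tested). The late 2-cell values enter both the choice of these genes and their comparison with zygotes. Their median level was 14.5 in zygotes, 26.1 at the late 2-cell stage and 1.35 in blastocysts. The 1565 genes that rose by at least 2 had medians of 3.05, 3.90 and 54.0, and 595 of them were under 1 in zygotes, as were 3474 of the 13698 genes tested.

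Most markers of other cell types stayed below a level of 1 in most embryos. Of 16 cumulus and granulosa markers 3 were tested, 2 fell and none rose, where 43.4% of all genes were lower and 22.2% higher. The falls were Amhr2 (50.7 to 101 and 0 to 71.6, median 11.5, -2.84 ± 0.80) and Nr5a2 (64.6 to 87.5 and 6.497 to 20.1, median 10.4, -2.74 ± 0.31), whose late 2-cell levels were above the median late 2-cell mean of all genes tested, 12.5. The sum of the 16 was 128 to 192 in late 2-cell embryos and 10.4 to 93.5 in blastocysts, nearly all from Amhr2 and Nr5a2, and 6 and 8 of the 16 were listed at 0 in every embryo of a stage, with Foxl2, Inhba, Ptx3, Fshr and Hsd3b1 at 0 in both. In WT zygotes, described from a separate table, the sum was 40.6 to 47.3 and Amhr2 averaged 0.0246 ± 0.0551 (SD, n = 5). Blood, fibroblast and sperm markers summed to 12.9 to 22.3 and 2.09 to 34.5, with Lum at 0 throughout, and Lyz2 alone fell (-2.42 ± 0.35 SE, adjusted p = 3.53e-05), though it was not tested with TMM or quantile scaling. Lyz2 reached a level of 1 in no blastocyst, so it was tested only through the late 2-cell embryos and could only be lower. Among the blastocysts, blastocyst 2 held the highest sum of both lists, beside its high 2-cell, oocyte and keratin levels, and the part of other cells in these was not tested. Of 6 Y-linked genes 4 were tested, with a sum of 31.2 to 136 in late 2-cell embryos and in blastocysts 1.40 to 1.59 in blastocysts 1, 4 and 6 and 35.98 to 61.0 in the other four. Ddx3y, Eif2s3y and Uty were not called. Kdm5d, a Y-linked histone demethylase, fell from 29.1, 59.5, 87.4 and 37.3 to between 0.138 and 2.78 (median 1.23) (-4.59 ± 0.46 SE, adjusted p = 1.08e-06). Kdm5d made up 93.4%, 58.5%, 64.2% and 96.5% of the Y-linked sum in late 2-cell embryos 1 to 4. Only 2 of the 6 genes reached a level of 1 in embryos 1 and 4. All WT zygotes had a Y-linked sum of 61.9 to 88.4, and the part of embryo sex was not tested.

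Whether the change differed after injection of R442Q mRNA was tested with the 23 embryos of both stages. Of 16291 genes 173 were called (1.06%), 131 with a higher blastocyst minus late 2-cell difference in R442Q embryos (0.804%) and 42 with a lower one (0.258%). The balance of directions changed with scaling, to 67 higher and 56 lower with TMM scaling and 76 higher and 87 lower with the deposited FPKM. The count rests on single libraries: it was 422 without R442Q late 2-cell embryo 3, 342 without R442Q blastocyst 7 and 100 without WT late 2-cell embryo 2. None of the tested members of the trophectoderm, inner cell mass, primitive endoderm and 2-cell lists was called, and over the other lists of this account 7 were: Gapdh, Tmsb4x, Mrpl57, Ooep, Ndufs6, Chek2 and Mdm2. Sp6, a transcription factor gene, averaged 34.6 ± 7.92 in WT late 2-cell embryos, 1.47 ± 2.43 in R442Q late 2-cell embryos, 0.112 ± 0.256 in WT blastocysts and 0.0159 ± 0.042 in R442Q blastocysts, all mean ± SD with n of 4, 5, 7 and 7. The means thus lay apart at the late 2-cell stage and close to 0 in both groups of blastocysts, and the difference of the differences was 4.19 ± 0.54 (SE; adjusted p = 3.17e-04). Gm5941 averaged 3.99 ± 2.17 in WT late 2-cell embryos, 85.7 ± 42.7 in R442Q late 2-cell embryos, 0.239 ± 0.632 in WT blastocysts and 0 ± 0 in R442Q blastocysts, a difference of -4.23 ± 0.54 (SE; adjusted p = 3.17e-04). Gapdh averaged 178 ± 49.8 in WT late 2-cell embryos, 355 ± 123 in R442Q late 2-cell embryos, 1192 ± 217 in WT blastocysts and 851 ± 322 in R442Q blastocysts, and its difference of -1.51 ± 0.37 (SE; adjusted p = 0.042) was called in 10 of the 23 fits that left out 1 embryo. Among the list members named above, Mrpl57 was called at 1.23 ± 0.31 (SE; adjusted p = 0.0497), and in 4 of 23 such fits. With replicate numbers fitted as blocks neither Gapdh (adjusted p = 0.0545) nor Mrpl57 (adjusted p = 0.0947) was called. Tmsb4x, an actin-binding peptide of the cytoskeleton list, averaged 130.5 ± 152 in WT late 2-cell embryos, 646 ± 186 in R442Q late 2-cell embryos, 2961 ± 1615 in WT blastocysts and 1391 ± 1265 in R442Q blastocysts, with -5.40 ± 1.35 (SE; adjusted p = 0.0478) and 7 of 23 fits. For Chek1 the difference of the differences was 0.04 (adjusted p = 0.98), and for Krt8 it was -0.87 (adjusted p = 0.725).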

How the data were processed

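Single mouse embryos were profiled by RNA-seq. The authors deposited FPKM values per gene symbol, 1 table per stage and 1 column per embryo, and estimated counts for late 2-cell embryos, used here for depth only. RSEM and mm10 are named in the submitters' processing notes, and the aligner, annotation and strand setting are not given in the sources used here. There are 51734 symbols for blastocysts and 49686 for late 2-cell embryos, and 99.8% of the 43349 shared ones without mt- genes are in GENCODE M21 (GRCm38), which gave gene types, positions and shared 50-base stretches.

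Columns were rescaled to a sum of 1000000. limma 3.58.1 with a variance trend was fitted to log2(rescaled FPKM + 1), over genes at 1 or more in at least 4 embryos, on the 11 WT embryos, and on 23 embryos of both mRNAs for the difference between them. Adjusted p-values in the text are Benjamini-Hochberg values from limma. Chek1 and library measures had exact permutation tests over 330 splits. TMM scaling used edgeR 4.0.16. On simulated data for the stage comparison (13698 genes), 47% of 100 genes changed by 1.5 on the log2 scale and 87% of 100 changed by 3 were recovered. The changed genes all had a late 2-cell mean above 3 on that scale. Far fewer genes changed there than the 8991 called in the embryos, so these shares do not measure recovery in the embryos.

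Named genes were core stage, lineage, metabolic and checkpoint genes, the 6 largest rises and 6 largest falls without overlap and with a mean of at least 20 in the higher stage, and the largest called rise and fall of each list. Further list members are named as examples. A gene that the rule names in the junction and transport list is not reported here. Members and lists were chosen with earlier results of these data known. Alternatives were other pseudocounts, filters, scalings, variance models and left-out embryos. Leaving out blastocysts 4 and 6, scaling by protein-coding genes and a minimum implied length of 500 bases were added after seeing the data. The zygote counts and R442Q zygotes were not used.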

Additional observations from a re-analysis of the deposited data

Results flagged for a closer look

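Of 171 groups of 4 to 10 embryos looked at, 14 had 1 embryo far from its neighbours by Dixon's criterion, which chance meets in about 1 group in 20. Blastocyst 6 was such an embryo for 4 genes: it was highest for Ccnb1 (636) and lowest for Fgf4 (0), Slc2a1 (5.27) and Spp1 (2.22). Blastocyst 2 stood high for Wee2 (2.20) and Sp6 (0.686), blastocyst 3 for AF067063 (0.755) and Gm5941 (1.67), and blastocyst 4 for Tcl1b1 (0.155), all at low levels. Among late 2-cell embryos, embryo 1 stood high for Cdkn1a (476), embryo 4 for Chek1 (921), embryo 2 for Ctgf (2.48) and Tmppe (62.9), and embryo 3 for Sox17 (0.555).

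For 10 named genes the stage change differed between R442Q and WT embryos in limma's test of that difference. The R442Q minus WT difference was 4.19 for Sp6, 3.88 for Atg9a, 4.73 for Tmppe, -4.23 for Gm5941 and -4.37 for Gm15056, and these 5 stayed past the threshold in all 23 fits that left out 1 embryo. Mean levels of Atg9a were 47.2 ± 17.8 in WT late 2-cell embryos, 3.56 ± 3.95 in R442Q late 2-cell embryos, 10.4 ± 6.27 in WT blastocysts and 10.01 ± 4.36 in R442Q blastocysts. For Tmppe they were 43.2 ± 13.2 in WT late 2-cell embryos, 2.68 ± 1.89 in R442Q late 2-cell embryos, 8.74 ± 7.06 in WT blastocysts and 14.6 ± 7.07 in R442Q blastocysts. For Gm15056 they were 4.72 ± 3.79 in WT late 2-cell embryos, 93.7 ± 38.9 in R442Q late 2-cell embryos, 0 ± 0 in WT blastocysts and 0 ± 0 in R442Q blastocysts. In each of these genes the late 2-cell means of the 2 mRNAs lay further apart than the blastocyst means. The difference was 6.84 for Gm29216, a pseudogene with 97.1% of its 50-base stretches in the mitochondrial gene mt-Co1, which is listed for blastocysts only (16 of 23 fits, adjusted p = 0.0513 with TMM scaling), -1.51 for Gapdh (10 of 23), -4.38 for Nup62cl (7 of 23), -5.40 for Tmsb4x (7 of 23) and 1.23 for Mrpl57 (4 of 23, adjusted p = 0.0844 with TMM scaling).

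Mitochondrially encoded genes, which enter no comparison, made up a median of 0.411% of the deposited FPKM of the WT blastocysts (range 0.19% to 1.35%).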

How the results depend on the processing

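For the stage change 6894 (a filter at 5) to 10419 genes (no filter) were called under the settings tried, 6935 to 7001 when a late 2-cell embryo was left out, when fewer genes could be tested, 8671 to 9034 when a blastocyst was left out and 8876 without blastocysts 4 and 6. An exact permutation test per gene called 8419. The share of calls that were higher was 33.8%, and 47.2% with TMM scaling, 52.0% with quantile normalization, 43.8% with the deposited FPKM and 26.9% with protein-coding genes only. Same-numbered embryos did not deviate together (r of -0.086 to 0.052), so numbers do not pair embryos, and with the replicate block 8451 genes were called. The genotype difference of 173 genes (131 higher, 42 lower) was 87 (65 and 22) at a pseudocount of 0.1, 517 (399 and 118) at 5 and 298 (209 and 89) with quantile normalization. With the deposited FPKM 76 were higher and 87 lower, with TMM scaling 67 and 56, and with the replicate block 128 were called, 26 lower. Leaving out 1 embryo gave 100 to 422 genes, 78 to 340 higher and 22 to 94 lower. Of those differing by at least 1, there were 86, 409 and 296 at the pseudocounts of 0.1 and 5 and with quantile normalization, and 99 to 416 with 1 embryo left out. The share of the column in the 50 highest genes was lower in blastocysts by -4.91 to -2.68 percentage points with 1 embryo left out, and missed the threshold without late 2-cell embryo 2 (-4.07) or 3 (-2.68; exact permutation p = 0.0917 for both).

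Directions that turned concerned genes and lists with small differences, and the cause was not tested. Ccng1 turned to 0.36 with the deposited FPKM, 0.53 with TMM, 0.43 with quantile normalization, 0.15 with the block and 0.24 with the length minimum, and ran from -0.44 to 0.62 with 1 embryo left out. Dppa3 turned to 0.47 with the deposited FPKM, 0.63 with TMM, 0.33 with the block and 0.32 with the length minimum (-0.31 to 0.14 with 1 embryo left out), and Cdkn1a to 0.018 with TMM. Slc2a1 turned to 0.087, 0.25 and 0.21 with the deposited FPKM, TMM and quantile normalization, and 0.068 with the block (-0.73 to 0.018). Nup62cl turned to 0.095, 0.17 and 0.39 with those scalings (-0.99 to 0.14). The glycolysis median turned to -0.29 with protein-coding genes (-0.087 to 0.19), and the p53 median to 0.018 with TMM and 0.25 with quantile normalization. The Hippo median turned to 0.16, 0.32 and 0.39 with the 3 scalings and 0.021 with the length minimum, and the imprinted median to 0.26, 0.41 and 0.48, 0.16 with array weights and 0.10 with the length minimum (-0.40 to 0.41). Over named genes and settings, 2223 values kept side and direction, 29 were weaker, 3 stronger and 29 reversed. Blastocyst depth in counts is unknown, so no limit can be set on genes listed at 0.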
